A study of Mus musculus with 5 samples.

Results

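MHC class II antigen presentation was followed through a dilution of adult mouse colon RNA into whole newborn mouse RNA. Class II molecules are pairs of an alpha and a beta chain that show peptides from endosomes to CD4 T cells. The invariant chain, encoded by Cd74, fills their groove during transport, proteases including cathepsin S (Ctss) cut it down, and H2-DM exchanges the remaining fragment for a peptide while H2-O restrains H2-DM. The class II chain genes are switched on by the coactivator Ciita, mostly in dendritic cells, B cells and macrophages, and under interferon gamma also in other cells, among them gut epithelium.

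The set and the gene lists below were chosen by name, with earlier results of these data known. Their counts beside the shares over all genes are therefore a description. The set holds 10 genes, namely H2-Aa, H2-Ab1, H2-Eb1, Cd74, H2-DMa, H2-DMb1, H2-Oa, H2-Ob, Ciita and Ctss. Of these, 8 had a probe set annotated to them alone, among 12393 such genes on the array, and each was represented by its brightest probe set over the 5 arrays. The other two, H2-DMb1 and H2-Ob, were covered only by probe sets annotated also to another gene, and were given no value of their own.

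All RNA came from C57BL/6 mice, for which the labels list no treatment and no engineered allele. One pool came from colons at 8 weeks and the other from whole mice at day 1, each made from several animals. The pools were mixed to colon shares of 0%, 25%, 50%, 75% and 100%, and 10 ng of each mix was amplified by a double T7 protocol and hybridised to 1 Affymetrix mouse array. Values are log2 signals from RMA, a method that corrects background, normalizes the arrays to each other and combines the probes of a probe set. A gene "rose" or "fell" when its log2 signal changed along the colon share with a limma p-value, adjusted over all 22626 probe sets tested, under 0.05. The fitted difference is the slope of that line, colon minus whole mouse.

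The arrays were alike in scale, with median log2 signals between 6.83 and 6.92. The labelled tissues were seen in their markers. All 9 measured genes of colon epithelium had a positive slope (lowest 2.10 log2), and all 8 genes of newborn tissues outside the colon had a negative one (highest −4.18). Age and tissue differed together between the pools and cannot be told apart. No mix had a second array and no animal was measured alone, so the p-values measure technical spread and any bend away from a straight line, not the spread between mice. In such bulk RNA, fewer cells of a type and less RNA per cell cannot be told apart.

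Class II promoters carry a conserved pair of elements, the X box bound by RFX and the Y box bound by NF-Y, on which Ciita assembles. RefSeq promoter windows (GRCm38.p6, 250 bases before to 50 after the start) were found for 7 of the 10 genes, in 8 windows. The stretches below come from the 5 member promoters in which short letters of both elements were found, and are shown so that the pair can be read in each. They run 5′ to 3′ in the direction of transcription, and the capitals mark the letters GNAAC, from the X box, and ATTGG, from the Y box. They lie at chr17:34287850-34287919 on the minus strand for H2-Aa, and on the plus strand at chr17:34305760-34305829 for H2-Eb1, chr17:34153082-34153151 for H2-DMb1, chr17:34092288-34092357 for H2-Oa and chr17:34238800-34238869 for H2-Ob.
H2-Aa: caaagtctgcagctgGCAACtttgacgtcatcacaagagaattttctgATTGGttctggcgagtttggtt
H2-Eb1: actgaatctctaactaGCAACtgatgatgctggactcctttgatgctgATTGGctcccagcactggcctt
H2-DMb1: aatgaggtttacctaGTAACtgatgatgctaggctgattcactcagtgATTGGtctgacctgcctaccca
H2-Oa: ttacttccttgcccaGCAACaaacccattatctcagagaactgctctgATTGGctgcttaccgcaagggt
H2-Ob: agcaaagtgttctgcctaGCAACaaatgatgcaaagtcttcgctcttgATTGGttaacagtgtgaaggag

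The pair stood at nearly the same place in these promoters. ATTGG began 48 bases before the annotated start in H2-Aa, 59 in H2-Eb1, 61 in H2-DMb1, 43 in H2-Oa and 57 in H2-Ob. GNAAC began 33 bases before ATTGG in H2-Aa, H2-DMb1 and H2-Oa, 32 in H2-Eb1 and 30 in H2-Ob. These short letters, and a distance of 20 to 40 bases between their first bases on one strand, were chosen after the promoters had been read. The pair was found on either strand in 5 of 8 member windows and in 3.51% of all 32851 windows. It was not in the window of Ctss or in either window of H2-DMa.

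Longer letters gave fewer matches. The letters CTGATTGG, which contain ATTGG, were in the promoters of H2-Aa, H2-Eb1 and H2-Oa and in 4.1% of all windows. GNNACNGAT, a longer form of the X box that can overlap GNAAC, was in 4 of the 8 member windows and in 7.82% of all windows, on either strand in both cases. GNNACNGAT beginning 15 to 45 bases before CTGATTGG was found in H2-Eb1 and in 0.0152% of all windows. All matches describe letters in a window and not binding.

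The classical class II chains, the invariant chain and cathepsin S all had higher signals in colon than in whole mouse. H2-Ab1, the beta chain of the A molecule, rose by a fitted 2.45 log2, Cd74 by 2.34, Ctss by 2.14 and H2-Eb1, the beta chain of the E molecule, by 2.04. H2-Aa, the alpha chain of the A molecule, had a fitted difference of 2.41 but missed the threshold (adjusted p = 0.0662). H2-DMa, H2-Oa and Ciita stayed within 0.51 log2 over the 5 arrays and did not pass. In all, 4 of the 8 measured genes rose and none fell, where 9.8% of all genes rose and 14.5% fell. By an unadjusted limma p under 0.05, 6 of the 8 rose and 0 fell. That looser threshold was passed by 7866 of all 22626 probe sets tested, rises and falls together. The median fitted difference of the 8 genes was 2.09 log2, against −0.01 over all genes.

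**Figure D1:**
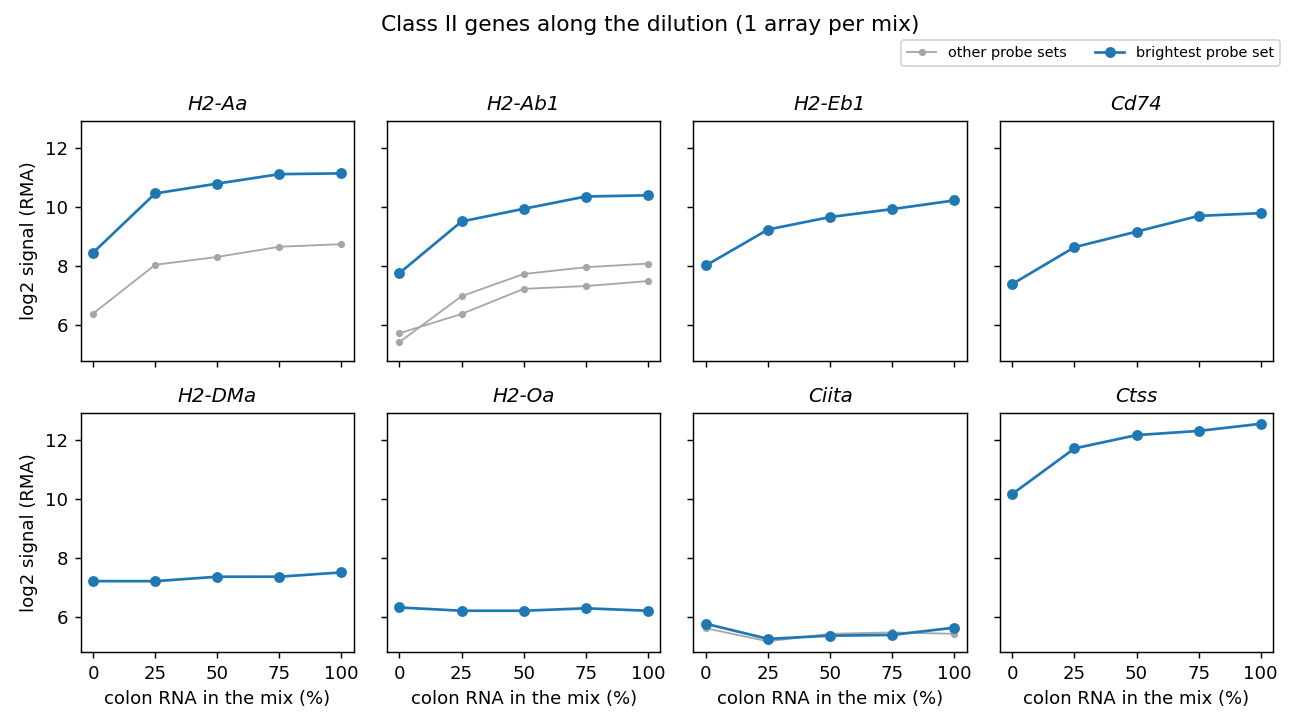
Log2 signal (y axis) against the share of colon RNA in the mix in percent (x axis) for the 8 class II genes with a probe set of their own, 1 array per mix; blue points are the brightest probe set and grey points the gene's other probe sets. H2-Aa, H2-Ab1, H2-Eb1, Cd74 and Ctss climb at every step with the largest step between 0% and 25% colon, and H2-DMa, H2-Oa and Ciita stay within 0.51 log2. For the genes that climb, mixing in proportion on the linear scale would by itself give a first step of 0.93 to 1.24 log2.

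Among the chains that bind peptide, H2-Ab1 had log2 signals of 7.77, 9.52, 9.95, 10.36 and 10.40 at 0%, 25%, 50%, 75% and 100% colon. Each array was higher than the one before, and the last step was only 0.04 log2. The fitted difference was 2.45 log2 (SE 0.57, adjusted p = 0.0437). Its brightest probe set has the suffix that Affymetrix gives to probe sets shared by several transcripts.

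The other probe sets of H2-Ab1 also rose, by 2.52 and 1.79 log2 (adjusted p = 0.0362 and 0.0220). The first of them lay at 5.43, 6.99, 7.74, 7.97 and 8.09 in order of rising colon share, and the second at 5.73, 6.38, 7.23, 7.33 and 7.50. All 3 probe sets of the gene thus climbed at every step.

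H2-Aa, its partner, had 8.46, 10.47, 10.80, 11.12 and 11.15 log2 in the same order. It stood 2.69 log2 apart between undiluted colon and undiluted whole mouse, the widest gap of the 8 genes, of which 2.01 log2 was reached at 25% colon. Mixing in proportion on the linear scale would by itself give 1.24 log2 at this step. The fit gave 2.41 log2 (SE 0.67, 95% interval 0.68 to 4.14). The second probe set, at 6.39, 8.05, 8.32, 8.66 and 8.75, gave 2.13 log2 and missed the threshold as well (adjusted p = 0.0516). H2-Aa passed when the arrays were centred on their medians (adjusted p = 0.0373), and its brightest probe set carries the suffix for probes that may bind other transcripts too.

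H2-Eb1 had 8.03, 9.24, 9.67, 9.94 and 10.23 log2 with rising colon share. Its fitted difference was 2.04 log2 (SE 0.35, adjusted p = 0.0227), and all 5 arrays were in rising order. Its alpha partner H2-Ea, which is silenced by a deletion in the C57BL/6 strain and is annotated by RefSeq as a transcribed pseudogene, had 8.72, 8.33, 8.46, 8.72 and 9.12 log2 in its brightest probe set. H2-Ea was lowest at 25% colon and its slope of 0.47 log2 did not pass (adjusted p = 0.32).

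Of the genes that load the groove, Cd74 had 7.40, 8.65, 9.17, 9.71 and 9.80 log2 with rising colon share. All 5 arrays were in order, and the fit gave 2.34 log2 (SE 0.37, adjusted p = 0.0190), the lowest adjusted p among the 8 genes. Ctss, the protease that trims the invariant chain in B cells and dendritic cells, had 10.16, 11.71, 12.16, 12.30 and 12.54 log2. It also climbed at every step and rose by 2.14 log2 (SE 0.50, adjusted p = 0.0448).

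The editors of the peptide repertoire gave smaller slopes. H2-DMa, the alpha chain of H2-DM, had 7.21, 7.21, 7.36, 7.36 and 7.51 log2, so that undiluted colon was 0.30 log2 above undiluted whole mouse. Its slope was 0.30 log2 (SE 0.10, 95% interval 0.04 to 0.56, adjusted p = 0.106). H2-Oa, the alpha chain of H2-O, which is found mainly in B cells and thymus, had 6.32, 6.21, 6.21, 6.29 and 6.21 log2, 3 of them the same value. No order followed the colon share, and its slope was −0.06 log2 (95% interval −0.33 to 0.22, adjusted p = 0.779) and turned to 0.03 with arrays centred on their medians.

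The beta chain of H2-DM is encoded by the neighbouring genes H2-DMb1 and H2-DMb2, and the shared probe sets disagreed. The brighter one had 7.15, 7.44, 8.00, 8.32 and 8.41 log2 with rising colon share. All 5 values were in order, and it rose by 1.36 log2 (SE 0.16, adjusted p = 0.0103). The dimmer one had 4.82, 5.16, 5.13, 5.19 and 5.26 log2, with a slope of 0.36 (adjusted p = 0.138).

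Another probe set, annotated to H2-DMb2 alone, had 6.34, 6.22, 6.17, 6.43 and 6.63 log2, with a slope of 0.32 (adjusted p = 0.294). The differences between these slopes were not tested. The probe set shared by H2-Ob, the beta chain of H2-O, and Gm20506 had 5.99, 5.99, 5.88, 5.99 and 6.11 log2, nearly level on the 5 arrays (slope 0.10, adjusted p = 0.652).

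Ciita, the coactivator of the class II chain genes, had 5.77, 5.25, 5.36, 5.39 and 5.63 log2 in its brightest probe set. Its highest values were on the undiluted arrays, and its slope was −0.05 log2 (SE 0.26, 95% interval −0.71 to 0.61, adjusted p = 0.926), with 0.03 after median centring and 0.47 without the whole mouse array. The second probe set lay at 5.61, 5.17, 5.43, 5.47 and 5.43, with a slope of −0.03. The interval holds changes of up to 0.61 log2 upward. The deposited values come without detection calls, so whether these signals lay above background was not tested.

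**Figure D2:**
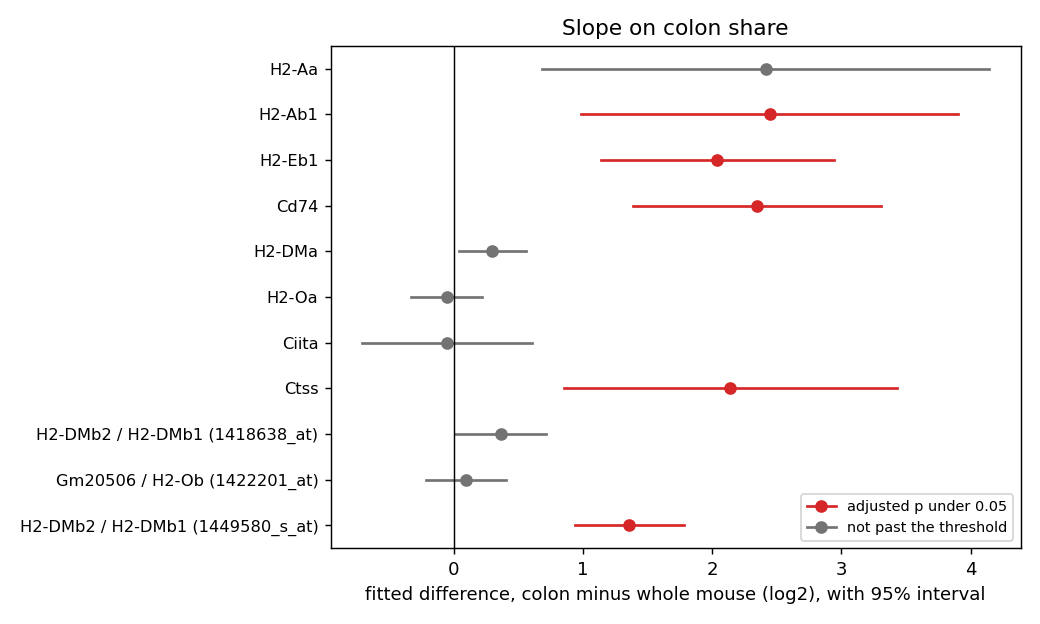
Fitted log2 difference, colon minus whole mouse (x axis), with its 95% interval for the 8 genes and the 3 probe sets shared with another gene, ordered down the page by role; red marks an adjusted p under 0.05. H2-Ab1, H2-Eb1, Cd74 and Ctss lie above 2.0 log2 in red beside H2-Aa in grey, and 1 shared H2-DMb probe set lies at 1.36.

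Over all probe sets of the 8 genes, 6 of 12 rose, where 8.63% of all probe sets did. Between the undiluted arrays, 5 of 8 genes were at least 2-fold higher in colon (9.26% of all genes), namely the 4 that rose and H2-Aa. The same 5 had all values in rising order, as 8.66% of all genes did. In a dilution, such order is largely set by a wide undiluted difference, so this count is not a separate result. The share in order among the genes at least 2-fold higher in colon was not computed. Their undiluted differences ran narrowly, from 2.20 log2 for H2-Eb1 to 2.69 for H2-Aa.

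The calls changed when an array was left out. Rises numbered 1 without the whole mouse array, 2 without the 25% mix, 0 without the 50% or the 75% mix (5 and 4 by an unadjusted limma p under 0.05) and 1 without the colon array. H2-Eb1 passed without the whole mouse array (adjusted p = 0.0342) and without the 25% mix (adjusted p = 0.0423). Cd74 passed without the 25% mix (adjusted p = 0.0441) and without the colon array (adjusted p = 0.0489). H2-Ab1 and Ctss passed in none of the 5 fits, with adjusted p from 0.0562 to 0.134 for H2-Ab1 and from 0.0524 to 0.131 for Ctss. Without the whole mouse array the slopes were 0.95 log2 for H2-Aa, 1.23 for H2-Ab1, 1.29 for H2-Eb1, 1.60 for Cd74 and 1.06 for Ctss, each still positive. Each such fit has 1 residual degree of freedom fewer, and over all probe sets the 1953 rises became 1306 without the 25% mix, 491 without the 50% mix, 489 without the whole mouse array, 222 without the 75% mix and 168 without the colon array.

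The mixtures were then set against the undiluted arrays on the linear scale, with colon at 100% and whole mouse at 0%. At 25% colon, the position between them was 55.4% for H2-Aa, 45.3% for H2-Ab1, 36.8% for H2-Eb1, 32.1% for Cd74 and 45.6% for Ctss. All 5 were above the nominal 25%, and so was the median of the 1148 genes at least 2-fold higher in colon, at 43.1% (interquartile range 35.6% to 51.9%). At 50% colon the 5 genes lay between 56.6% for Cd74 and 74.7% for H2-Aa, against a median of 62.6%.

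At 75% colon, H2-Aa reached 97.9%, H2-Ab1 96.6% and Cd74 92.3%, all above the interquartile range of the genes higher in colon (62.4% to 88.4%, median 74.6%). Ctss stood at 80.9% and H2-Eb1 at 76.4%, within that range. With 1 array per mix the spread of a position was not measured, and none of these gaps was tested.

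**Figure D3:**
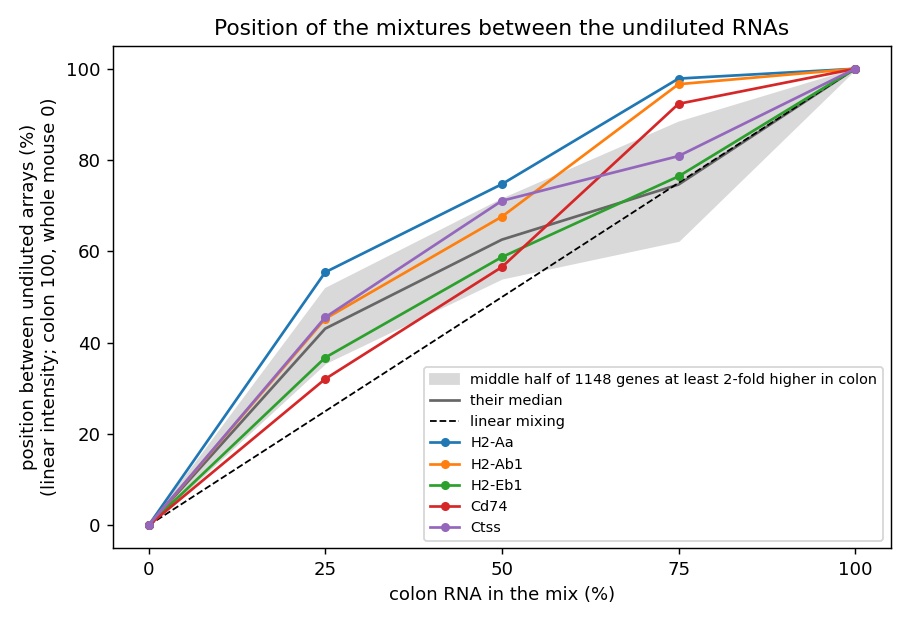
Position of each mixture between the undiluted arrays on the linear intensity scale in percent (y axis, colon at 100 and whole mouse at 0) against the colon share in percent (x axis), for the 5 class II genes at least 2-fold higher in colon; the grey line and band are the median and interquartile range of the 1148 genes at least 2-fold higher in colon, and the dashed line is linear mixing. H2-Aa, H2-Ab1 and Cd74 lie above the band at 75% colon.

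Of 10 transcription regulators of class II, acting on its promoters or further upstream, 1 rose and 1 fell, near the shares over all genes (9.8% rose and 14.5% fell). Irf8, a transcription factor of dendritic cells, macrophages and B cells, rose by 2.15 log2 (7.41, 8.75, 9.18, 9.35 and 9.80, adjusted p = 0.0248), and Nfyc, a subunit of NF-Y, fell by 0.44 (9.49, 9.34, 9.27, 9.08 and 9.06, adjusted p = 0.0410, and 0.0940 with arrays centred on their medians). The other subunits Nfya and Nfyb had slopes of 0.30 and 0.33 log2 without passing. The 3 RFX subunits did not pass either, with slopes of 0.23 for Rfx5, 0.05 for Rfxank and 0.34 for Rfxap. Creb1 (0.09), which binds beside the X box, Irf4 (0.15), of B cells and dendritic cells, and Spi1 (−0.54), of myeloid and B cells, also missed the threshold.

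Genes of interferon gamma signalling held 4 rises and no fall among 8 measured, by limma's adjusted and unadjusted p alike. By adjusted p, 9.8% of all genes rose and 14.5% fell. An unadjusted p under 0.05 was reached by 7866 of all 22626 probe sets tested, rises and falls together. The receptor chain Ifngr1 rose by 2.04 log2, with 9.23, 10.52, 10.94, 10.90 and 11.59 along the colon share (adjusted p = 0.0290). Irf1, a transcription factor induced by interferon that acts on Ciita, rose by 2.04 as well (adjusted p = 0.0128), its relative Irf2 by 0.92 and the kinase Jak2 by 0.68 (adjusted p = 0.0488). Irf2 was dim, between 4.65 and 5.68 log2, and whether its signals lay above background was not tested. The second receptor chain Ifngr2 stayed between 8.18 and 8.46 log2 (slope −0.03, adjusted p = 0.917).

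Of 12 endosomal genes, 3 rose and 3 fell, where 9.8% of all genes rose and 14.5% fell. Sppl2a, the membrane protease that removes the last stub of the invariant chain, rose by 1.55 log2 (7.98, 8.92, 9.40, 9.25 and 9.75, adjusted p = 0.0372). The peptidase Ctsc rose by 1.38 (adjusted p = 0.0289). Legumain (Lgmn), an asparagine-specific protease, fell by 0.82 (adjusted p = 0.0246) and cystatin C (Cst3), an inhibitor of cathepsins, by 0.54 (adjusted p = 0.0407). The remaining calls, named after their values were seen, were the thiol reductase Ifi30, which rose by 0.53 log2, and cathepsin D (Ctsd), which fell by 0.53. The lysosomal membrane protein Lamp1 lay between 12.10 and 12.41 log2 without passing (adjusted p = 0.442).

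Of 8 partners of class II at the contact with T cells, 1 fell and 0 rose by limma, near the shares over all genes (14.5% fell and 9.8% rose). By an unadjusted p under 0.05 the rises were 0 as well, and 1 with arrays centred on their medians, on linear intensities or without the whole mouse array. The adhesion molecule Icam1 fell by 0.96 log2 (8.13, 7.49, 7.48, 7.45 and 6.96, adjusted p = 0.0437), and the class II coreceptor Cd4 had 7.29, 6.82, 6.70, 6.93 and 7.06 (slope −0.15, adjusted p = 0.771). Of 2 other class II chains measured, H2-Ea and H2-DMb2, neither passed. Over these 5 lists, 8 of 40 genes rose and 5 fell, with a median slope of 0.15 log2, beside 9.8% rising, 14.5% falling and a median of −0.01 log2 over all genes. On linear intensities 4 rose and 3 fell, without Ctsc, Sppl2a, Jak2, Irf2, Cst3 and Icam1, and centred on array medians 8 rose and 3 fell, without Nfyc and Cst3. Rises among the 40 numbered 3 without the whole mouse array, 3 without the 25% mix, 2 without the 50% mix, 0 without the 75% mix (9 by an unadjusted limma p under 0.05) and 1 without the colon array. Over all probe sets, 1953 rises became 489, 1306, 491, 222 and 168 in that order. Falls among the 40 numbered 2 without the 25% mix and 0 in the other 4 fits (4 to 6 by an unadjusted limma p under 0.05). Over all probe sets, 2456 falls became 1692 without the 25% mix and 829 to 1428 in the other 4 fits. In those 4 fits, 5874 to 7075 probe sets had an unadjusted limma p under 0.05, rises and falls together.

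Markers of the cells that carry class II moved in both directions, with falls only in the macrophage list. Of 7 measured B cell genes 1 rose and 0 fell, near the shares over all genes (9.8% rose and 14.5% fell). The linker Blnk rose by 3.25 log2 (7.50, 9.95, 10.56, 10.76 and 11.15, adjusted p = 0.0490). The summed signal of the B cell list was 11.42 log2 in undiluted colon and 9.33 in undiluted whole mouse, but without Blnk the other 6 summed to 8.85, 8.65, 8.69, 8.81 and 8.91 over the 5 arrays. Of 8 dendritic cell genes 1 rose and 0 fell, near the same shares. The integrin Itgax rose by 0.80 log2 (6.02, 6.21, 6.51, 6.71 and 6.77, adjusted p = 0.0155), and the list summed to between 9.52 and 9.83.

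Of 11 macrophage markers 1 rose and 3 fell, where 9.8% of all genes rose and 14.5% fell. Of 7 T cell markers 0 rose and 1 fell, near the same shares. Among the macrophage genes, the endotoxin receptor Cd14 rose by 2.55 log2, while the lysosomal protein Cd68 fell by 1.61, the growth factor receptor Csf1r fell by 0.97 and the complement chain C1qb fell by 0.91. Their summed level was 12.36 log2 in undiluted colon and 12.61 in undiluted whole mouse. Csf1r, the brightest of them by its mean, had 10.31 log2 in undiluted colon and 11.20 in undiluted whole mouse, and Lyz2 had 10.32 and 10.09. Among the T cell genes Thy1 fell by 1.72 log2, and the list summed to 9.47 in undiluted colon and 10.06 in undiluted whole mouse. Thy1 had 7.19 log2 in undiluted colon and 8.88 in undiluted whole mouse. In the same order Cd3e had 7.67 and 7.77, Cd3d 7.23 and 7.43, Cd3g 5.72 and 5.54 and Cd8a 5.72 and 5.55. Sums without Csf1r or Thy1 were not computed.

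Among 5 genes of all leukocytes 1 rose and 2 fell, where 9.8% of all genes rose and 14.5% fell. Ptprc, the leukocyte phosphatase CD45, rose by 0.91 log2 while the actin-binding protein Coro1a fell by 1.22 and the lysosomal protein Laptm5 fell by 1.02. The summed levels of the list were 10.26 log2 in undiluted colon and 10.94 in undiluted whole mouse. In the colon epithelium list 2 of 9 rose, Cdx1 and Cdx2, where 9.8% of all genes did. Car1, Slc26a3 and Krt20 did not pass, though all 5 values of each were in rising order. Their undiluted differences were 7.39, 5.85 and 5.16 log2. The summed level of the list was 15.89 log2 in undiluted colon and 12.23 in undiluted whole mouse. Blnk and Cdx1 did not pass with trended robust moderation (adjusted p = 0.0609 and 0.0646), Krt14 of the newborn list did not pass with it either (adjusted p = 0.0615), and Cd68 not on linear intensities (adjusted p = 0.0653). Other markers passed only under an alternative. With arrays centred on their medians, Cd22 of the B cell list, Mertk of the macrophage list and Vil1, Cdh17 and Epcam of colon epithelium rose. Without dim probe sets, Cd22, Mertk, Vil1 and Cdh17 rose, and with trended robust moderation Mertk rose. On linear intensities, Vil1, Cdh17 and Krt20 of colon epithelium rose and Afp, Acta1 and Myh3 of the newborn list fell. Over all 55 marker genes there were 6 rises and 9 falls, beside 9.8% rising and 14.5% falling over all genes. These counts became 11 and 9 with centring, 9 and 11 on linear intensities, 10 and 9 without dim probe sets (44 genes tested) and 5 and 8 with trended robust moderation. Over all probe sets, 1953 rises and 2456 falls became 3148 and 2325, 1578 and 1820, 2300 and 2471, and 2335 and 2615, in that order. The marker counts became 3 and 1 without the whole mouse array, 2 and 6 without the 25% mix, 2 and 5 without the 50% mix, 0 and 3 without the 75% mix (11 and 15 by an unadjusted limma p under 0.05) and 1 and 4 without the colon array. Over all probe sets these fits gave 489 and 1003, 1306 and 1692, 491 and 1428, 222 and 1143, and 168 and 829. Without the 75% mix, 6641 probe sets had an unadjusted limma p under 0.05. The part of any of these cells in the class II signals was not tested.

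**Figure D4:**
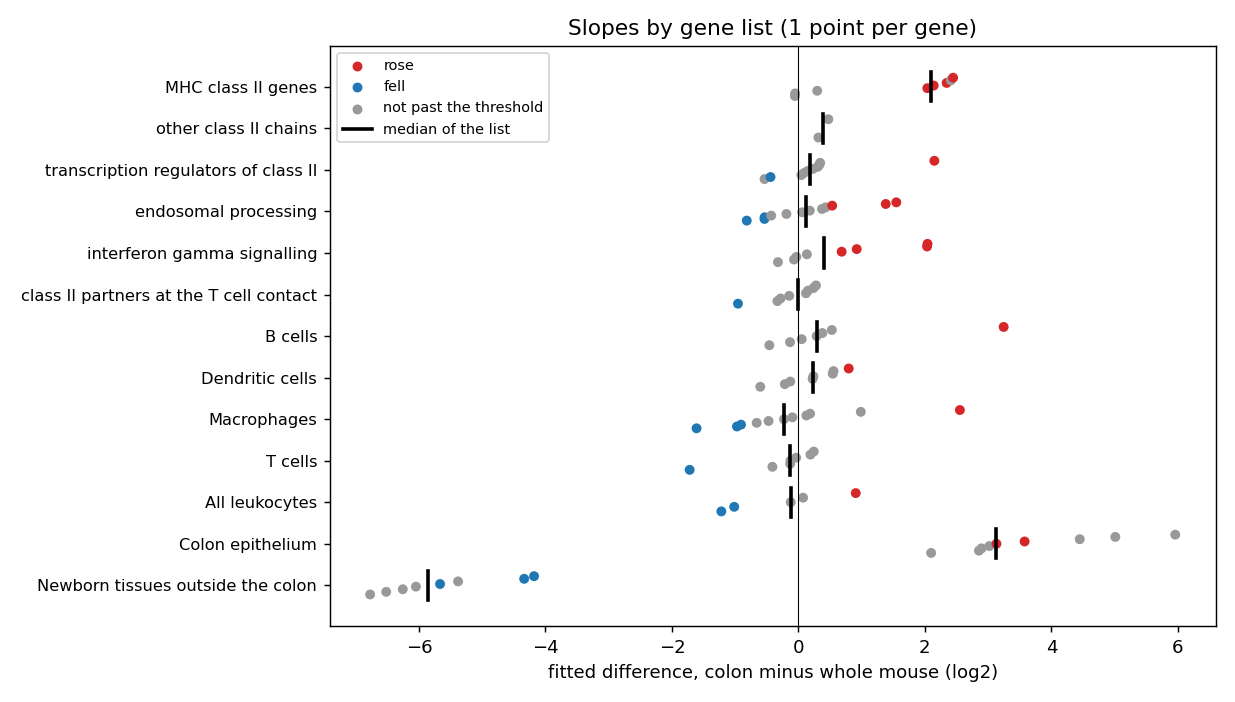
Fitted log2 difference, colon minus whole mouse (x axis), of each measured gene in the class II set, in 5 lists of pathway genes and in 7 lists of cell and tissue markers (1 point per gene, black bar the list's median, red rose, blue fell, grey did not pass). The class II set has a median of 2.09 log2, the B cell, dendritic cell, macrophage and T cell lists have medians between −0.23 and 0.29, and colon epithelium has 3.13.

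The genes whose course was nearest to that of Cd74 came from several functions. Likeness was the root mean square difference of log2 values, each gene centred on its own mean over the 5 arrays. It was smallest for the clock gene Per2 (0.05 log2), then the tryptophan-degrading enzyme Ido1 (0.06), Krtcap3 (0.07), Clca3b (0.08) and the potassium channel Kcnq1 (0.08). Within the class II set the nearest was H2-Eb1 (0.14), with 38 genes outside the set nearer than it, then H2-Ab1 and Ctss (both 0.17) and H2-Aa (0.26). The measure rests on 5 arrays of the same RNA pools and is a description.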

How the data were processed

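The authors deposited log2 values, computed with RMA per the submitters' processing notes, for 22690 probe sets on 5 arrays. The RMA version is not given here. RMA left tied values between arrays in 9158 probe sets. The 64 control probe sets were left out. Of the rest, 20380 were annotated to 1 gene, 691 to several and 1555 to none listed. Symbols were updated through gene identifiers against RefSeq GRCm38.p6 (20364 matched).

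Signals were fitted probe set by probe set against the colon share (0 to 1) with limma 3.58.1 in R 4.3.3, with eBayes moderation, 3 residual degrees of freedom and Benjamini-Hochberg adjustment over 22626 probe sets, 2-sided. The fit was tested on simulated data. The number of arrays limits the precision, and the samples are technical mixes of 2 pools. Arrays were grouped by the colon share in their titles. Members and lists were chosen with earlier results of these data known. Named were all members, all other chains and regulators, the 4 largest slopes past the threshold and the brightest gene not past it in each other pathway list, and the 5 genes most like Cd74. Marker genes that passed were named after their values were seen. Alternatives were median centring, linear intensities, a filter on mean log2 signal under 6, trended robust moderation, the second-brightest probe set and leaving out each array.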

Additional observations from a re-analysis of the deposited data

How the results depend on the processing

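The rises among class II genes (4) numbered 5 with arrays centred on their medians and 4 on linear intensities, without dim probe sets (7 genes tested, Ciita being left out), with trended robust moderation and by the second-brightest probe set, but between 0 and 2 with an array left out; falls were 0 in all these fits. Rises among the 40 pathway genes (8) numbered 4 on linear intensities and between 0 and 3 with an array left out; falls (5) numbered 3 centred on medians, 3 on linear intensities and between 0 and 2 with an array left out. Over all probe sets, 1953 rises and 2456 falls (44.3% rises) became 3148 and 2325 after centring (57.5%), and with an array left out rises ran from 168 to 1306 and falls from 829 to 1692. They became 1578 and 1820 on linear intensities, 2300 and 2471 without dim probe sets and 2335 and 2615 with trended robust moderation. By unadjusted limma p under 0.05, the fits without the 50% and the 75% mix called 7075 and 6641 probe sets, against 7866. After centring the slope turned to 0.0281 log2 for H2-Oa and 0.0326 for Ciita; with an array left out it ran from −0.0885 to 0.0330 (the highest without the whole mouse array) for H2-Oa and from −0.409 to 0.466 (the highest without the whole mouse array) for Ciita, and neither passed in any fit. The other 6 slopes kept their direction in every fit run. Fits with an array left out have fewer degrees of freedom, and the cause of the changes was not tested. No paired analysis was possible because each mix had 1 array.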
